A study of Mus musculus with 12 samples.

Results

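The genes described here are 34 genes of the cell division cycle and of DNA replication, given by name and found by symbol in both deposited count tables, out of 55385 genes in each. They were measured by RNA sequencing in satellite cells, from which skeletal muscle regenerates, taken from the hindlimb of C57BL/6J mice and frozen straight after isolation. The study asked how Keap1, which holds the transcription factor NRF2 (gene Nfe2l2) at a low level, acts on these cells in females and in males. The 4 groups of 3 libraries were female Het (Hetz164, Hetz165, Hetz181), female KO (KO166, KO178, KO188), male Het (Hetz204, Hetz245, Hetz249) and male KO (KO240, KO247, KO255), and values are listed in that order throughout. Each title carries its own number, read here as that of an animal, which the labels do not spell out, so that p-values measure the spread between these libraries. Het stands for the genotype that the labels write as Keap1 heterogeneous or Hetz, read here as heterozygous, and KO for the genotype labelled Keap1 knockout, so that the controls also carry a changed Keap1 allele. The driver of the deletion, the way the cells were purified and the ages of the mice were not given in the sources used here. All groups had the same strain, tissue and handling in the labels. Nothing in the labels pairs a library of one group with a library of another.

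A dividing cell builds the parts of this set in turn. Cyclin E (Ccne1, Ccne2) and cyclin A (Ccna2) with the kinase Cdk2 drive entry into and passage through S phase under E2F factors such as E2f1, while Cdc6 and Cdt1 load the Mcm2 to Mcm7 ring, the replicative helicase, onto origins. Pcna is the sliding clamp of the polymerases, and ribonucleotide reductase (Rrm1, Rrm2) and thymidylate synthase (Tyms) supply the nucleotides. Cyclin B (Ccnb1, Ccnb2) with Cdk1 starts mitosis, which the Aurora, Plk1 and Bub1 kinases, the kinetochore and spindle proteins and the anaphase-promoting complex then carry through. Satellite cells of resting adult muscle are known for being out of the cycle, and they enter it after injury. Several licensing genes are also transcribed in cells that are not dividing, whereas transcripts of mitotic genes are known to peak in late S, G2 and M phase.

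Total counts ran from 13042039 to 19273245 per library. Levels are given as CPM, counts scaled to a common library size after a correction for library composition over all 12. Where a library holds no count of a gene, up to 3 counts remain possible, or 0.144 to 0.237 CPM depending on the library, and such bounds cover counting error only, because the libraries carry no molecular identifiers. Over all 12 libraries a member collected between 189 and 25826 counts. The median count per library was under 50 for 19 members in males and for 5 in females, so that the mitotic genes were measured with few fragments in males. Aurkb and Bub1 had 0 counts in Hetz249, which allows up to 0.17 CPM, and no other member had a library at 0.

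The label of the cells was checked against marker genes. Myf5, a satellite cell transcription factor, lay between 879 and 1949 CPM, and Pax7, the defining factor of these cells, between 10.3 and 29.7 CPM over the 12 libraries. The summed level of 10 satellite cell markers was 12305 to 13824 CPM in Het females, 8339 to 10602 CPM in KO females and 17032 to 19973 CPM in males, so that the female groups did not overlap. Keap1 itself was at 9.49, 7.10 and 7.93 CPM in Het females, 11.8, 12.8 and 10.9999 in KO females, 10.04, 5.34 and 7.9999 in Het males, and 6.38, 7.85 and 7.64 in KO males. Every KO female lay above every Het female and the males overlapped, with log2 fold changes of 0.54 (adjusted p = 0.186, edgeR) and -0.09 (adjusted p = 0.936). The count covers all exons of the gene and so does not check the genotype labels. KO is therefore used below as the label of the libraries.

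Per kilobase of the deposited gene length, which allows one gene to be set beside another, the highest member was Pcna with a mean of 53.3 CPM per kb over the 12 libraries. Rrm2 had 22.4, Mcm7 17.1, Mcm4 10.6 and Mcm6 9.37 CPM per kb. The order below Pcna depended on sex, since Rrm2 had 9.597 CPM per kb in females, under Mcm7 (18.1), Mcm6 (11.6) and Mcm4 (9.93), and 35.3 CPM per kb in males, above all 3. The mitotic genes lay lower on the same scale. Cdc20, which activates the anaphase-promoting complex, had 4.72 CPM per kb, Top2a, the topoisomerase that untangles chromosomes, 1.36, and Cdk1 0.614. Mki67, the antigen used to stain cycling cells, had 0.669 CPM per kb. The lowest member was Cdc6 in females, with 0.284 CPM per kb, where the kinetochore motor Cenpe had 0.412. In males the lowest were Cenpe, Bub1 and Mki67, with 0.119, 0.120 and 0.132 CPM per kb, while Cdc6 had 0.247. The highest members over the 12 libraries were thus genes of replication, followed by Cdk2 with 8.63 CPM per kb. Other replication genes lay below Cdc20, among them Rrm1 (4.24), Mcm5 (3.45), Tyms (1.10) and Mcm2 (0.943). Of the members, 4 share 10% or more of their exonic bases with another gene, which are Ccna2, Ccne2, Mcm7 and Ube2c, and their counts are uncertain to that extent because fragments were counted without regard to strand. For Ube2c, the E2 enzyme of the anaphase-promoting complex, the overlap was 22.8% of exonic bases. It is shared with a gene of the myofibre marker list used below, and its part in the Ube2c values was not tested.

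**Figure D1:**
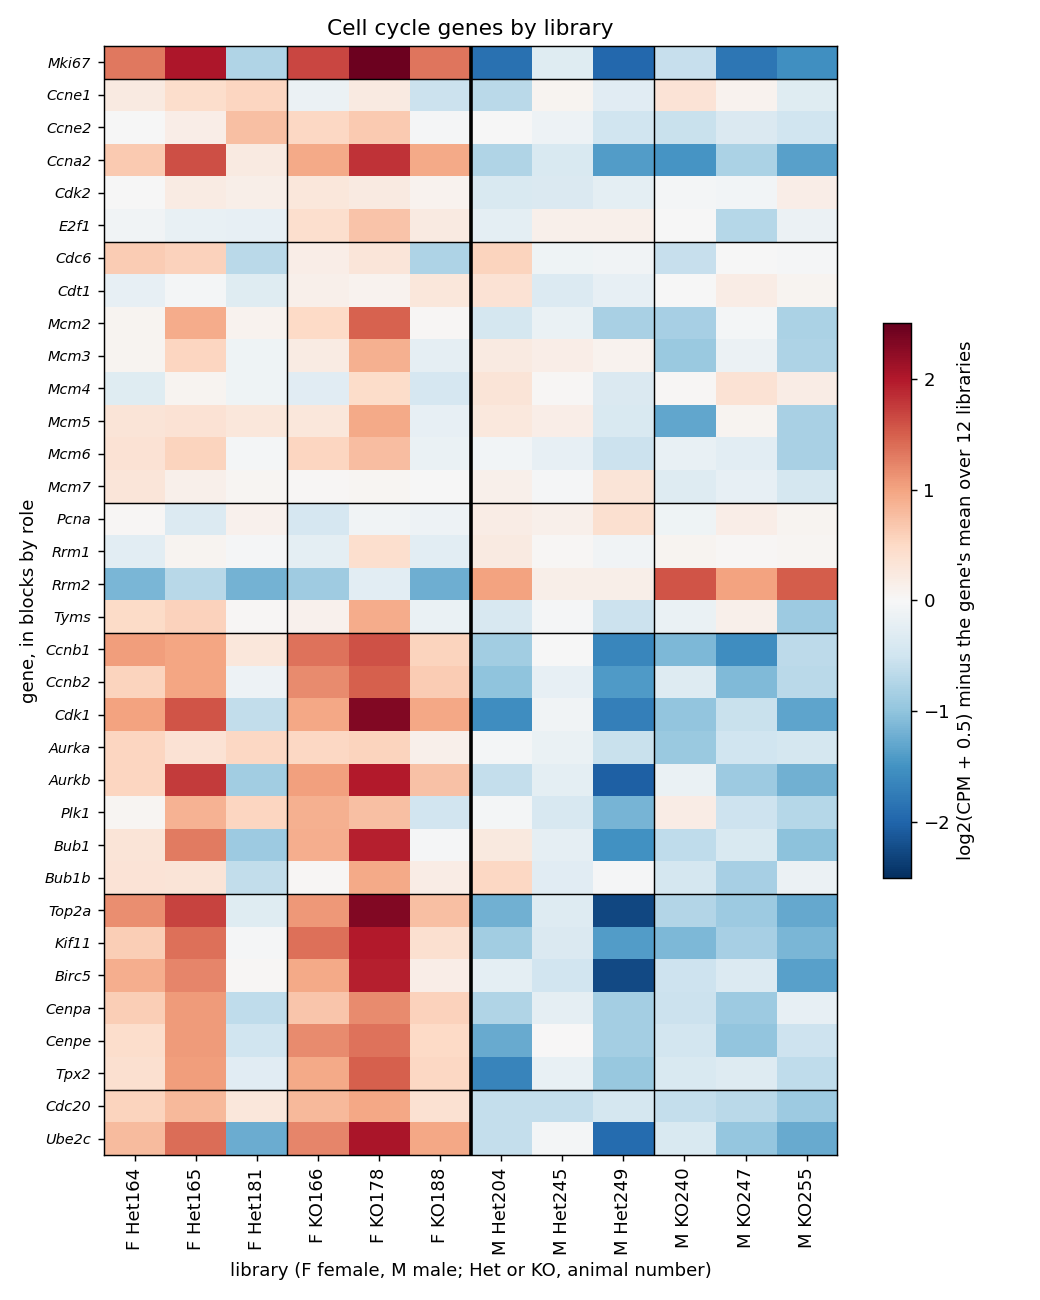
Level of each of the 34 genes (rows, in blocks by role) in each of the 12 libraries (columns), as log2(CPM + 0.5) minus the gene's mean over the libraries. Most mitotic rows are red in females other than Hetz181 and blue in males, with KO178 darkest. Hetz181 is blue in rows such as Cdk1, Aurkb, Bub1 and Cenpa. Rrm2 shows the opposite colours, and Pcna, Rrm1 and Mcm4 are pale throughout.

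The mitotic genes varied together from one female library to the next, and less uniformly among the males. Summed over the 16 mitotic members, the level was 93.8, 131.8 and 48.7 CPM in Het females, 114.8, 189.4 and 82.2 CPM in KO females, 35.1, 44.8 and 23.4 CPM in Het males, and 34.9, 29.7 and 29.7 CPM in KO males. All 6 male sums lie below all 6 female sums, while the Het and KO sums overlap within each sex. Among the 6 females, KO178 was highest for 26 of the 34 members and for 15 of the 16 mitotic ones, and Hetz181 was lowest for 18 and for 14. Among the 6 males, Hetz249 was lowest for 14 members, 10 of them mitotic. The highest male library was split, with Hetz245 highest for 8 mitotic members and Hetz204 for 4. Within a sex the highest mitotic value was a median of 4.35 times the lowest in females and 3.69 times in males. The male median leaves out Aurkb and Bub1, which had a library at 0 and so no finite ratio. The 2 medians therefore do not cover the same genes and do not rank the sexes by spread. Because whole populations were sequenced, fewer cycling cells and less transcript per cycling cell cannot be told apart in any of these values. The sum over the 8 licensing and helicase members spread less. It was 242.0, 264.5 and 211.7 CPM in Het females, 239.97, 308.7 and 199.6 CPM in KO females, 242.4, 209.9 and 205.7 CPM in Het males, and 173.8, 210.3 and 165.6 CPM in KO males.

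**Figure D2:**
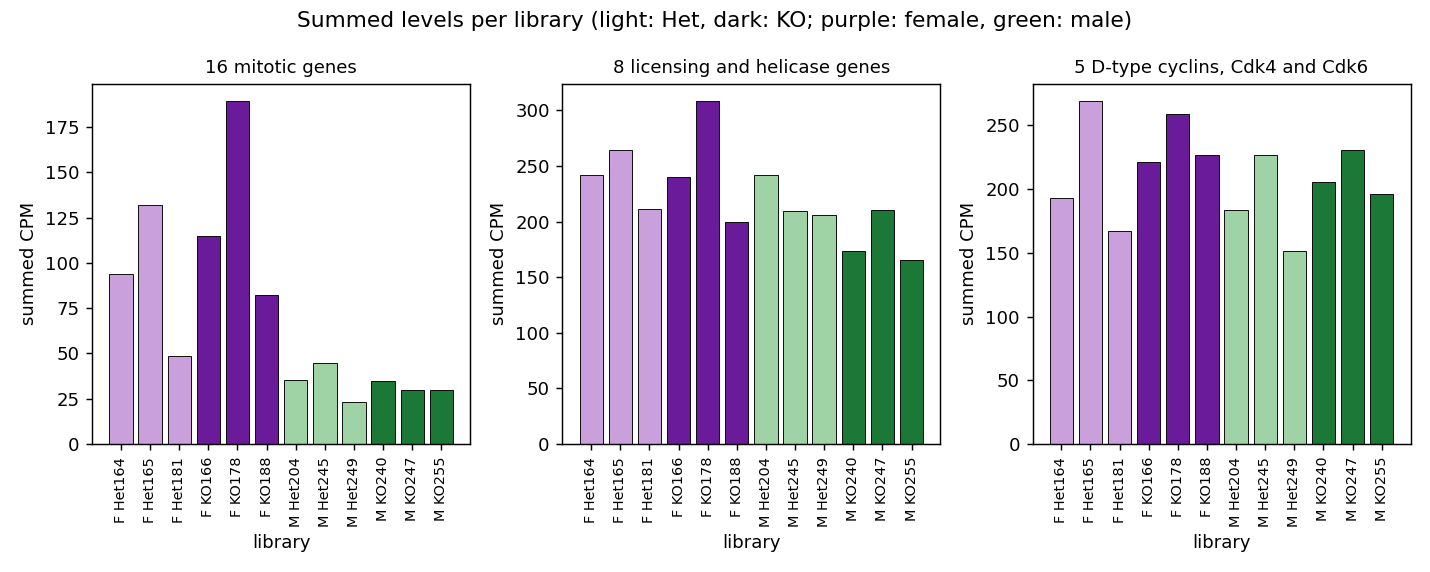
Summed CPM (bars from 0) in each library for the 16 mitotic genes, the 8 licensing and helicase genes, and the D-type cyclins with Cdk4 and Cdk6. The mitotic sums run from 48.7 to 189.4 CPM in females and from 23.4 to 44.8 CPM in males, whereas the other sums overlap between the sexes.

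Since the mitotic genes moved together between the female libraries, their promoters were compared. A promoter is here the 250 bases before and 50 after the start of a RefSeq gene on GRCm38.p6, and 29 of the 34 members had an entry, with 30 promoters in all. TTTGAA, searched on both strands, is the core of the element known as CHR, through which the DREAM complex represses cell cycle genes in resting cells, and CCAAT, searched likewise, is the box bound by NF-Y. TTTGAA was found in 12 of the 30 promoters (40.0%), against 17.9% of 32851 mouse promoters of the same length, and CCAAT in 24 (80.0%), against 37.4%. Both occurred together in 12, against 6.95% of all promoters. By role, 10 of 14 promoters of mitotic members held TTTGAA, which are those of Aurka, Bub1b, Ccnb2, Cdc20, Cdk1, Cenpa, Kif11, Plk1, Top2a and Ube2c. Those of Birc5, Bub1, Ccnb1 and Cenpe did not, and Ccnb1 was among the members called lower in males in both genotypes. Of the 16 promoters of other members 2 held TTTGAA, those of Mcm2 and Mki67. GGCGC, the core of E2F sites, on either strand, was in 23 of the 30, against 36.9%, and TTCGAA, which reads the same on both strands, in 4 of the 30, against 1.56%. None of these 4 letter strings contains another. A match describes the letters and is not a site shown to be used. Whether these letters go with lower levels in males was not tested. The 120 bases before the start are printed for 4 mitotic genes that were lower in male libraries (Cdk1, Kif11, Cdc20, Ccnb2) and for Rrm2, which was higher, 5′ to 3′ on the strand of the gene, with TTTGAA and CCAAT of either strand in capitals. They lie at chr10:69352913-69353032 on the minus strand for Cdk1, chr19:37376262-37376381 on the plus strand for Kif11, chr4:118437344-118437463 on the minus strand for Cdc20, chr9:70421555-70421674 on the minus strand for Ccnb2, and chr12:24708134-24708253 on the plus strand for Rrm2.
Cdk1: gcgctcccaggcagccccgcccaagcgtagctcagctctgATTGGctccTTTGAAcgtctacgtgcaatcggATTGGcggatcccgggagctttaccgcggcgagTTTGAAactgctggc
Kif11: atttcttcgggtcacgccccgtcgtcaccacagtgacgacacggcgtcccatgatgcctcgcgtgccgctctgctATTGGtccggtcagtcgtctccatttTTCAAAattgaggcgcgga
Cdc20: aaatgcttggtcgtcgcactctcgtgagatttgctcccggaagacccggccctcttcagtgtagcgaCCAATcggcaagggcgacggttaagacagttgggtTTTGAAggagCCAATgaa
Ccnb2: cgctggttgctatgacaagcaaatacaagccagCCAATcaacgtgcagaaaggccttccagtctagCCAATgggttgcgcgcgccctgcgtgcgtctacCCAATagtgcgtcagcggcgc
Rrm2: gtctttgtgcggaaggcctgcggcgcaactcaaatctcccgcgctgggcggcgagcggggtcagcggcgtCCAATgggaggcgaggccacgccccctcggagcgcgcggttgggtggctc
In the Cdk1 window TTTGAA begins 71 and 15 bases before the start and CCAAT, on the opposite strand, 80 and 48 bases before it. The Kif11 window has 1 of each on the opposite strand, 19 and 45 bases before the start. In the Cdc20 window TTTGAA begins 18 bases before the start, between CCAAT at 53 and at 8. The Ccnb2 window has CCAAT at 87, 54 and 21 bases before the start, and its TTTGAA lies elsewhere in the longer promoter. The Rrm2 window holds CCAAT 50 bases before the start and no TTTGAA.

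KO and Het were first compared within the females. No member passed the test (edgeR's quasi-likelihood test, Benjamini-Hochberg adjustment over all genes tested, threshold 0.05), with all 34 tested, against 2.27% of all 14036 genes. At an unadjusted p under 0.05 there were 2 members, both higher, against 17.9% of all genes, and DESeq2 and limma voom also called 0. The log2 fold change was above 0 for 27 of the 34, with a median of 0.35, where the median over all genes was 0.00444. The size of that tilt moved with single libraries. Without KO178 16 of the 34 were above 0 and the median was -0.03. The median was 0.09 without Hetz181 and 0.22 without Hetz164, and 0.49 without Hetz165, 0.38 without KO166 and 0.46 without KO188. Without both Hetz165 and KO178, a choice made after the values were seen, 24 were above 0 and the median was 0.20. The E and A cyclins and E2F came nearest to the threshold through E2f1, whose product switches on S phase genes. E2f1 had 0.853, 0.773 and 0.740 CPM in Het and 1.44, 1.84 and 1.18 CPM in KO, so that every KO female lay above every Het female. Its log2 fold change was 0.90 ± 0.38 (SE), with an adjusted p of 0.239. Ccne1 went the other way, with 3.05 ± 0.395 CPM in Het and 1.959 ± 0.636 CPM in KO (SD, n = 3) and an adjusted p of 0.317 (edgeR).

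Among the licensing genes Cdt1, which loads the helicase, had 15.8, 17.7 and 14.8 CPM in Het females and 20.0, 19.6 and 22.4 CPM in KO females. The groups did not overlap, the log2 fold change was 0.36 ± 0.16 (SE), and the adjusted p was 0.276 (edgeR). Mcm7 also did not overlap, in the other direction, with 93.0, 81.6 and 77.6 CPM against 76.3, 77.6 and 74.5 CPM. The nearest values nearly touch, with 77.64 CPM in Hetz181 and 77.58 CPM in KO178. Groups did not overlap for 2 members higher in KO (against 12.1% of all genes) and 1 lower (against 10.1%), which is 3 of 34, against 22.3% in both directions. The other Mcm genes had log2 fold changes from 0.08 for Mcm4 to 0.39 for Mcm2. Pcna, at 121.6 ± 19.6 CPM in Het and 109.3 ± 13.3 CPM in KO (SD, n = 3), had a 95% interval of its log2 fold change from -0.49 to 0.18, which excludes a 2-fold change in either direction.

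The mitotic genes were more often higher than lower in KO females, and none passed. All 6 chromosome, kinetochore and spindle members had a log2 fold change above 0, with a median of 0.54, and 6 of the 8 mitotic cyclins and kinases did, with a median of 0.50. Ccnb2, 1 of the cyclins that starts mitosis, had 7.04, 9.76 and 4.23 CPM in Het and 11.1, 14.0 and 7.46 CPM in KO. Its groups overlapped, and the log2 fold change was 0.62 ± 0.31 (SE; adjusted p = 0.317, edgeR). Mki67 had 9.76, 16.3 and 1.96 CPM in Het and 12.6, 22.2 and 9.93 CPM in KO. The lowest Het value is that of Hetz181, and Hetz165 lies above KO166 and KO188. The 95% interval of the Mki67 log2 fold change ran from -1.09 to 2.41. Of the 34 intervals 14 lay within 2-fold in both directions, and the median half-width was 0.70.

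In males 32 members were tested, since Plk1 and Bub1 fell under the filter on low counts. None passed with edgeR, against 0.861% of all 13361 genes, and 4 had an unadjusted p under 0.05, against 12.4%. Limma voom called 0, while DESeq2 called 2, Rrm2 higher and Mcm3 lower. The median log2 fold change was -0.08, and 12 of the 32 were above 0. Rrm2, the small and regulated subunit of ribonucleotide reductase, had 98.5, 53.9 and 53.6 CPM in Het males and 144.8, 97.2 and 138.8 CPM in KO males. The groups overlapped through Hetz204 and KO247 only. The log2 fold change of Rrm2 was 0.89 ± 0.25 (SE), with an adjusted p of 0.170 (edgeR), 0.00732 with DESeq2 and 0.0193 without Hetz204. Its partner Rrm1 had 48.3 ± 5.56 CPM in Het and 47.9 ± 0.588 CPM in KO (SD, n = 3).

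Of the helicase genes Mcm3 had 27.8, 26.7 and 25.2 CPM in Het males and 12.3, 21.3 and 13.6 CPM in KO males, with no overlap. Its log2 fold change was -0.76 ± 0.20 (SE), with an adjusted p of 0.124 (edgeR), 0.0300 with DESeq2 and 0.00952 without KO247. Mcm7 had 82.4, 73.7 and 93.4 CPM in Het and 59.9, 64.9 and 55.1 CPM in KO, again with no overlap, and a log2 fold change of -0.47 ± 0.14 (SE; adjusted p = 0.168, edgeR). Mcm5 had 13.2 ± 3.10 and 8.48 ± 4.49 CPM (SD, n = 3). Of the rest of the ring Mcm4 had a log2 fold change of 0.18 and Mcm6 of -0.14. Cdk2, the kinase of cyclins E and A, had 40.4, 41.4 and 44.8 CPM in Het and 51.6, 50.9 and 59.3 CPM in KO, every KO male above every Het male, with a log2 fold change of 0.36 ± 0.13 (SE; adjusted p = 0.290, edgeR). In all, groups did not overlap for 1 member higher (Cdk2, against 9.39% of all genes) and 3 lower (Mcm3, Mcm7, Cdc20, against 7.8%), which is 4 of 32, against 17.2% in both directions. For Cdc20 the nearest values nearly touch, with 5.06 CPM in Hetz204 and 5.03 CPM in KO240. The mitotic genes of males were measured with wide intervals. The 95% interval of the log2 fold change of Cdk1 ran from -1.55 to 1.48 and that of Aurkb, an Aurora kinase, from -1.69 to 2.04.

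**Figure D3:**
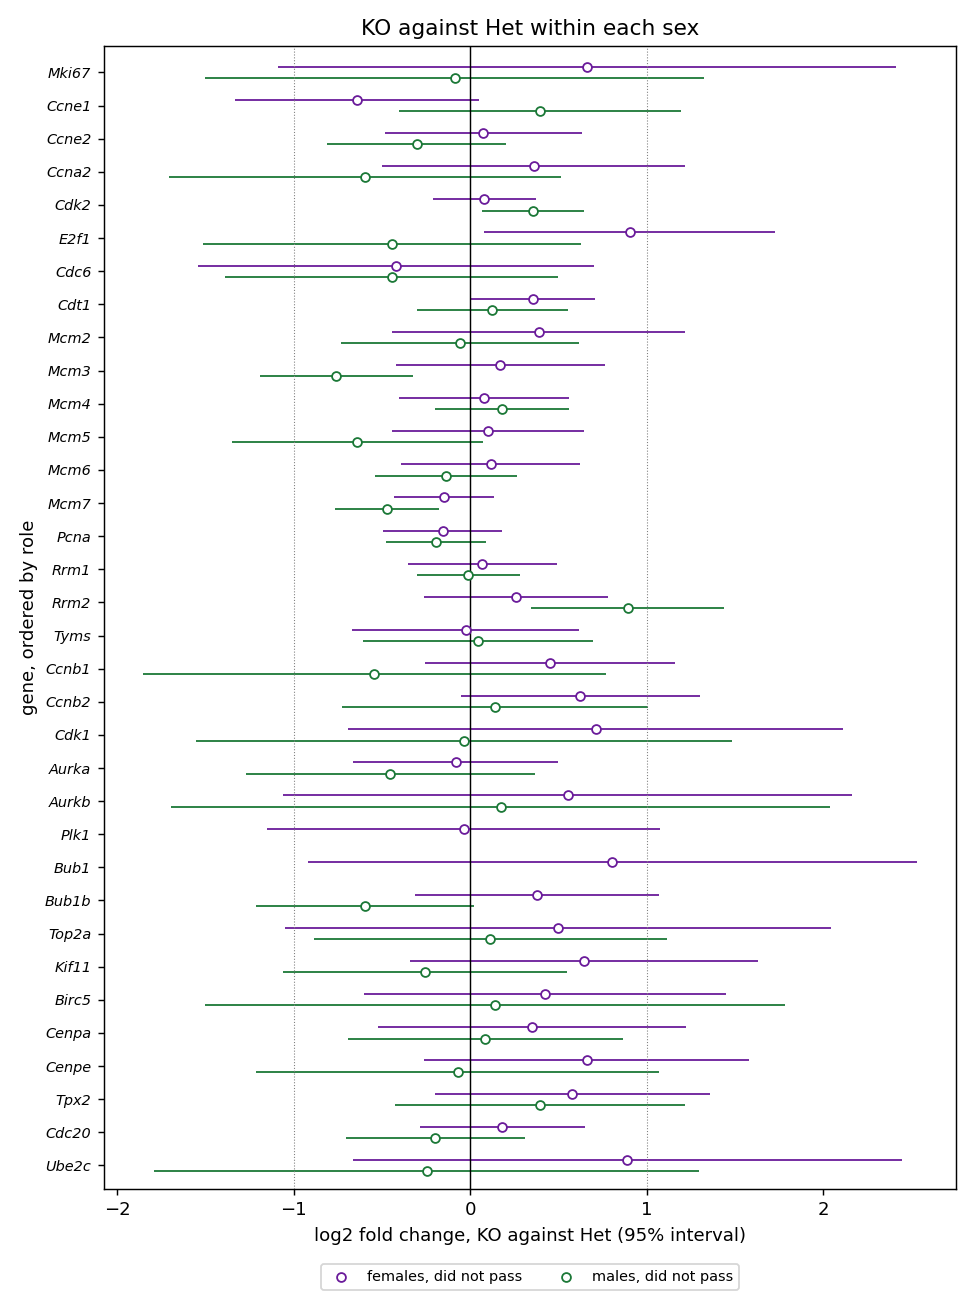
Log2 fold change of KO against Het for each gene in females (purple) and in males (green), with 95% intervals as bars. Open circles mark genes that did not pass the test, which holds for all 34 in females and all 32 tested in males, and dotted lines stand at a 2-fold change.

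Over both sexes in 1 fit of the 12 libraries no member passed with edgeR, against 3.41% of all 14772 genes, and 3 had an unadjusted p under 0.05, against 17%. These were Mcm7, with a log2 fold change of -0.31 ± 0.09 (SE; adjusted p = 0.0726), Rrm2, with 0.58 ± 0.19 (adjusted p = 0.136), and Cdk2, with 0.22 ± 0.09 (adjusted p = 0.206). DESeq2 called Mcm7 (adjusted p = 0.0203) and Rrm2 (adjusted p = 0.0470), limma voom called 0, and without Hetz204 Rrm2 also passed in edgeR (adjusted p = 0.0276). Of the 34 intervals 23 lay within 2-fold in both directions. For Cdc20 the 95% interval of the log2 fold change ran from -0.32 to 0.31 and for Pcna from -0.39 to 0.04.

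The change in females was then set against the change in males. No member passed this test (edgeR), against 0.00677% of all genes, which is 1 gene, and 4 had an unadjusted p under 0.05, against 12.4%, while DESeq2 and limma voom called 0. The difference, female change minus male change on the log2 scale, was 0.94 ± 0.37 (SE) for Mcm3, 1.35 ± 0.60 for E2f1, 0.98 ± 0.46 for the checkpoint kinase gene Bub1b and -1.03 ± 0.48 for Ccne1, with adjusted p values of 0.320 to 0.397. The median difference over the members was 0.38 and that over all genes -0.01. Without Hetz181, KO178 or Hetz245 the members' median difference was 0.25, 0.17 or 0.13, and without Hetz165, KO188 or Hetz249 it was 0.67, 0.60 or 0.58.

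Levels in male and female libraries of the same genotype were compared in the 12-library fit. The females and the males were counted in separate tables, so that any batch of handling, sequencing or counting cannot be told apart from sex. In Het 7 members were lower and 1 was higher in males, of 34 tested, against 4.72% of all genes lower and 5.44% higher, 10.2% in all. In KO 20 members were lower and 1 higher, against 9.31% lower and 11.1% higher, 20.4% in all. Lower in both were Ccna2, Ccnb1, Ccnb2, Kif11, Tpx2 and Cdc20, and higher in both was Rrm2. The median log2 fold change of male against female was -0.91 in Het and -1.27 in KO, where the median over all genes was -0.000966 and -0.0094. Every male library lay below every female library for 9 members, against 4.25% of all genes. These were Ccna2, Mcm2, Ccnb1, Ccnb2, Aurka, Top2a, Kif11, Birc5 and Cdc20. The counts moved with single libraries. In Het 3 members passed without Hetz204 or Hetz249, 4 without Hetz165 and 13 without Hetz181, and in KO 11 passed without KO178, 12 without KO255 and 13 without KO240. Without both females of highest mitotic sum, Hetz165 and KO178, chosen after the values were seen, the numbers were 4 and 13.

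**Figure D4:**
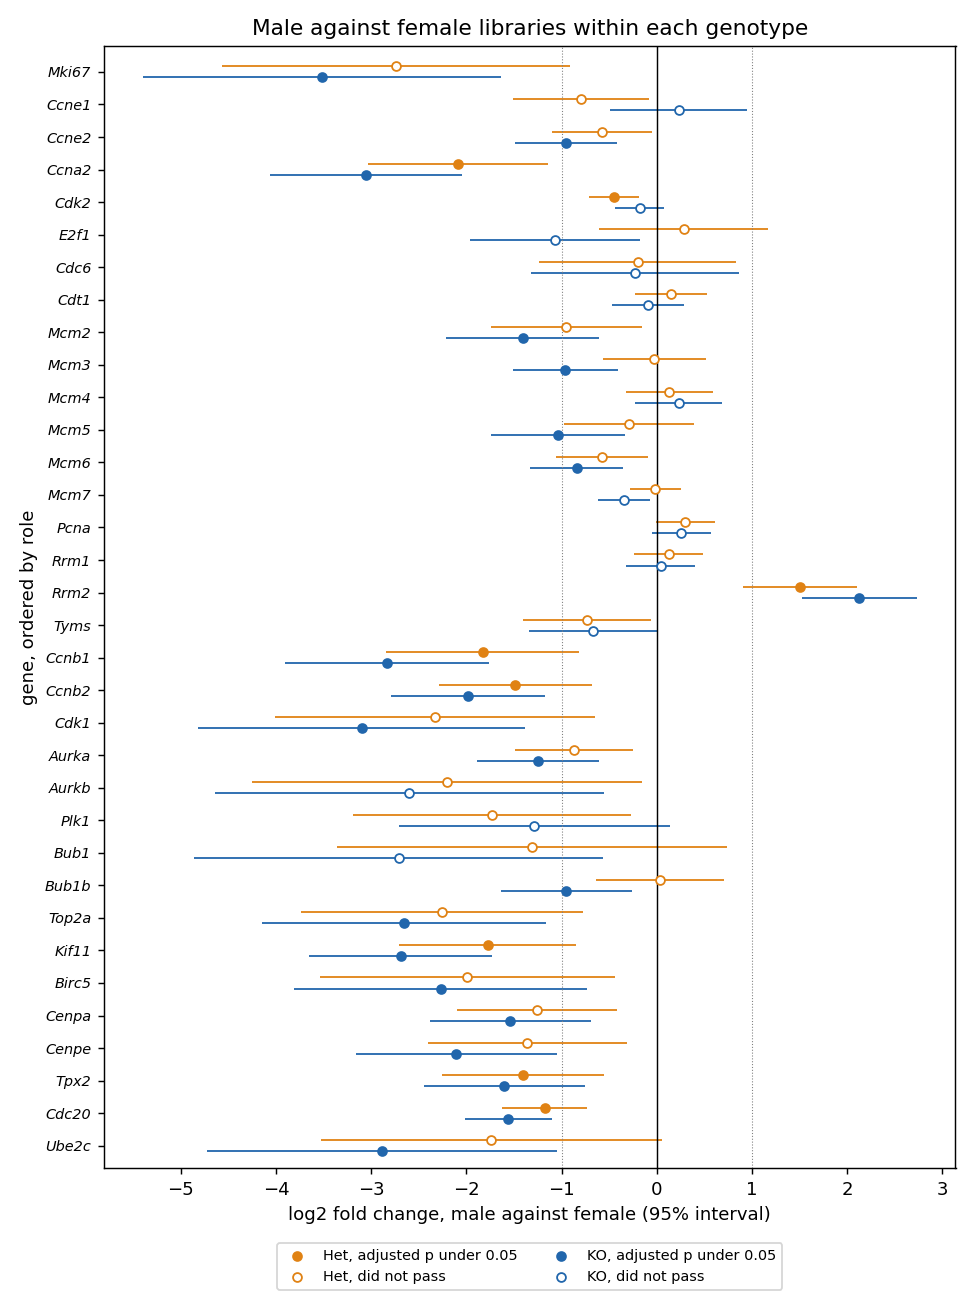
Log2 fold change of male against female libraries for each gene in Het (orange) and in KO (blue), with 95% intervals as bars and filled circles for an adjusted p under 0.05. Mitotic genes lie to the left of 0, apart from Bub1b in Het, Rrm2 lies to the right in both genotypes, and Pcna, Rrm1, Mcm4 and Cdt1 lie near 0.

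The mitotic cyclins and kinases were lower in males by a median of -1.61 on the log2 scale in Het and of -2.29 in KO. Of the 8, 2 passed as lower in Het and 5 in KO, against 4.72% and 9.31% of all genes. Ccnb2 had 7.04, 9.76 and 4.23 CPM in Het females and 2.05, 3.99 and 1.42 CPM in Het males. In KO it had 11.1, 14.0 and 7.46 CPM in females and 3.61, 1.89 and 2.72 CPM in males. No male value reaches the lowest female value, and the fold was 2.80 in Het (adjusted p = 0.0202) and 3.95 in KO (adjusted p = 0.0019, edgeR). For Het the Ccnb2 call was lost without Hetz165, Hetz204 or Hetz249, and without both high females. Ccnb1 was 3.55-fold lower in Het (adjusted p = 0.0221) and 7.14-fold lower in KO (adjusted p = 0.00104, edgeR), and its Het call was lost without Hetz164, Hetz204 or Hetz249, and without both high females. Cdk1, the kinase that cyclin B activates, had 4.32, 6.57 and 1.06 CPM in Het females and 0.316, 1.74 and 0.227 CPM in Het males. These overlap through Hetz181 and Hetz245, and the Het difference of Cdk1 did not pass (adjusted p = 0.0782). In KO, with 4.16, 11.5 and 4.15 CPM in females and 0.709, 1.13 and 0.465 CPM in males, it was 8.57-fold lower (adjusted p = 0.016). That call was lost without KO240 or KO255. Bub1b, which guards chromosome attachment, differed between the genotypes in this respect by its values, with a log2 fold change of 0.03 in Het and -0.95 in KO, and the test of that difference gave an adjusted p of 0.397. The KO call of Bub1b (adjusted p = 0.0488, edgeR) held in 7 of 17 alternatives. Aurkb, Plk1 and Bub1 passed in neither genotype.

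Of the chromosome, kinetochore and spindle members 2 of 6 passed as lower in Het and 6 of 6 in KO. The shares of all genes were 4.72% and 9.31%. Kif11, the motor that pushes the spindle poles apart, had 7.30, 12.7 and 4.50 CPM in Het females against 2.29, 3.43 and 1.42 CPM in Het males. In KO the values were 12.7, 19.6 and 6.23 CPM against 1.84, 2.34 and 1.79 CPM. The groups stand apart in both genotypes, by 3.42-fold in Het (adjusted p = 0.0181) and 6.44-fold in KO (adjusted p = 0.000816, edgeR), the Het call of Kif11 being lost without Hetz165, Hetz204 or Hetz249. Top2a had 18.3, 26.6 and 6.40 CPM in Het females, 17.5, 41.7 and 13.7 CPM in KO females, 3.16, 6.29 and 1.25 CPM in Het males and 4.61, 4.001 and 2.99 CPM in KO males. The highest male value, 6.29, is just under the lowest female value, 6.40. Top2a was 6.29-fold lower in KO (adjusted p = 0.0202) and did not pass in Het (adjusted p = 0.0596, edgeR), and its KO call was lost without KO178, any 1 of the KO males or the filter on low counts. Tpx2, which activates Aurora A on the spindle, passed in both, 2.65-fold and 3.03-fold lower. Its Het call was lost without Hetz164 or Hetz165, or Hetz204, Hetz249 or KO240, without both high females and with limma voom. Birc5 (survivin), Cenpa, the histone of the centromere, and Cenpe passed in KO, 4.83-fold, 2.90-fold and 4.31-fold lower. The Cenpa call was lost without KO178, that of Birc5 held in 6 of 17 alternatives, and that of Cenpe in all 17.

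Cdc20 was the member with the smallest p in both genotypes. Its values were 11.8, 14.2 and 9.68 CPM in Het females and 14.3, 15.9 and 10.5 CPM in KO females, and 5.06, 5.06 and 5.67 CPM in Het males and 5.03, 4.76 and 3.98 CPM in KO males. The 6 male values are close together and lie well under the 6 female ones. Cdc20 was 2.26-fold lower in Het (adjusted p = 0.00244) and 2.95-fold lower in KO (adjusted p = 0.000123, edgeR), and passed in all 17 alternatives of both comparisons. Ube2c had 0.476 to 9.04 CPM in females and 0.113 to 1.74 CPM in males and passed in KO alone (7.39-fold lower, adjusted p = 0.0314, edgeR), a call lost without any 1 of the KO libraries of either sex, without both high females and without the filter on low counts. Mki67 had 0.632, 2.87 and 0.567 CPM in Het males and 2.27, 0.679 and 0.930 CPM in KO males. Those of Het males overlap the lowest Het female value of 1.96 CPM, and in Het Mki67 did not pass (adjusted p = 0.0624), while in KO it was 11.5-fold lower (adjusted p = 0.0158), a call lost without KO247 or KO255 and without the filter on low counts.

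**Figure D5:**
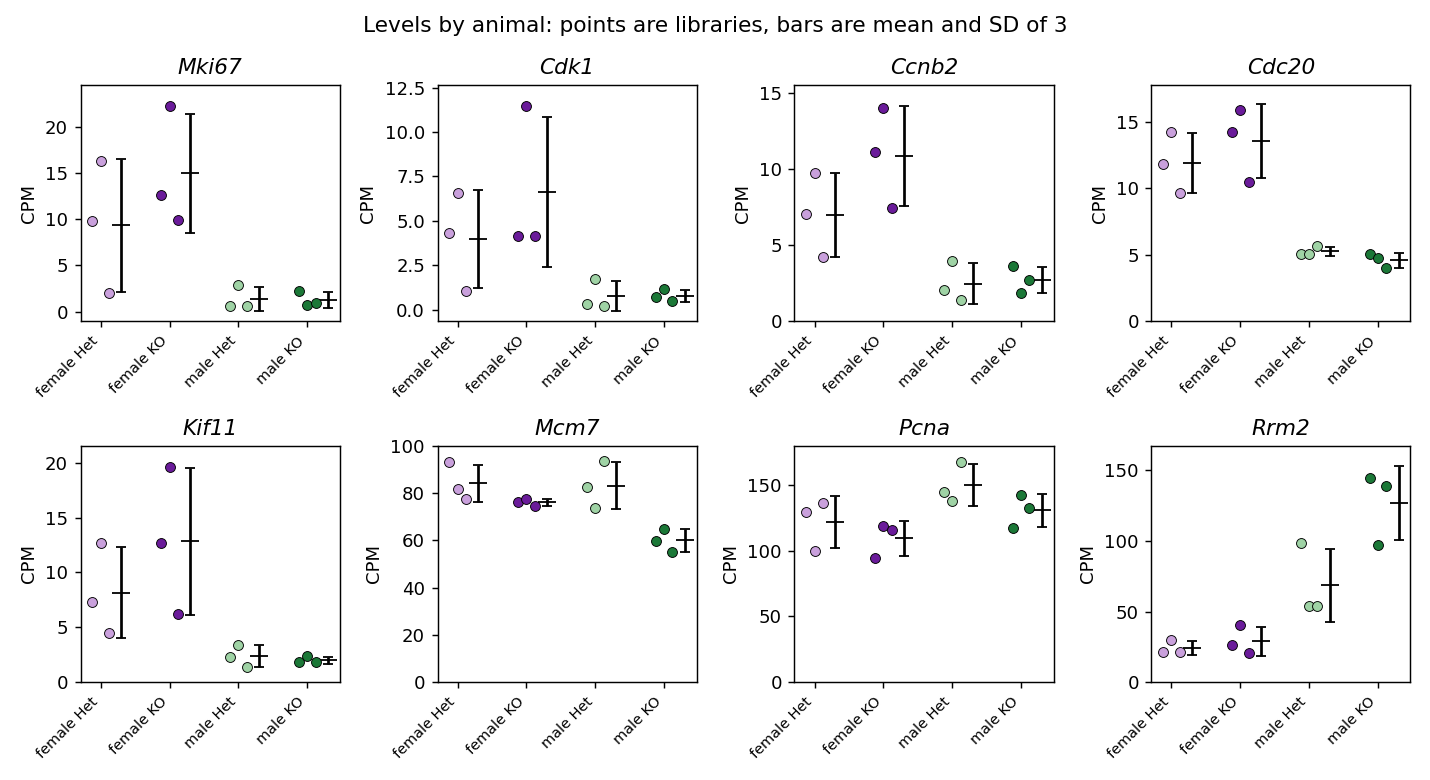
CPM of 8 genes in each library (points) by group, with the mean and SD of 3 libraries (bars). Cdc20, Kif11 and Ccnb2 lie lower in both male groups than in both female groups, Rrm2 lies higher, and Pcna overlaps between groups.

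Of the 5 G1 to S members 2 passed as lower in males in each genotype, against 4.72% of all genes in Het and 9.31% in KO. Ccna2 had 4.16, 8.55 and 2.96 CPM in Het females and 1.26, 1.80 and 0.624 CPM in Het males. In KO it had 5.22, 9.87 and 5.22 CPM in females and 0.567, 1.21 and 0.664 CPM in males. The highest male value is 1.80 CPM and the lowest female value 2.96 CPM, and Ccna2 was 4.24-fold lower in Het (adjusted p = 0.0076) and 8.31-fold lower in KO (adjusted p = 0.000371), in all 17 alternatives of each. Ccne2 was 1.94-fold lower in KO (adjusted p = 0.0135, edgeR), a call lost without KO178 and without both high females, and did not pass in Het. Cdk2 passed in Het with a fold of 1.36 (adjusted p = 0.0287) and not in KO. The Het call of Cdk2 was lost in 7 of 17 alternatives, among them those without Hetz165 or Hetz181 and those without any 1 of the Het males. Ccne1 and E2f1 passed in neither genotype.

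Of the 8 licensing and helicase genes none passed in Het (edgeR), where 2 had an unadjusted p under 0.05, against 25% of all genes, and the median log2 fold change was -0.11. In KO Mcm2, Mcm3, Mcm5 and Mcm6 passed as lower, against 9.31% of all genes. Their folds were 2.65, 1.94, 2.05 and 1.79, with adjusted p values of 0.0155, 0.0167, 0.0376 and 0.0171. Mcm2 had 6.08, 11.3 and 6.19 CPM in Het females, 8.38, 16.9 and 5.89 CPM in KO females, 4.11, 5.06 and 3.06 CPM in Het males and 3.05, 5.59 and 3.12 CPM in KO males. All male values of Mcm2 lie under all female ones, the nearest being 5.59 and 5.89. The KO calls of Mcm2 and Mcm3 were both lost without KO178, KO240 or KO255, that of Mcm6 without KO166, KO178 or KO255, and that of Mcm5 without Hetz165, Hetz181, KO166, KO178, KO240 or KO255. All 4 were also lost without both high females. Mcm4 was at 34.6 ± 4.37 and 36.6 ± 13.2 CPM in Het females and KO and at 38.0 ± 8.94 and 43.0 ± 5.04 CPM in Het males and KO (SD, n = 3), and did not pass. Mcm7 had in Het a 95% interval of the log2 fold change from -0.28 to 0.25, and Cdc6 and Cdt1 passed in neither genotype.

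Rrm2 was the member that was higher in males. It had 21.6, 29.7 and 21.1 CPM in Het females and 26.1, 40.5 and 20.5 CPM in KO females, against 98.5, 53.9 and 53.6 CPM in Het males and 144.8, 97.2 and 138.8 CPM in KO males. Every male value lies above every female value, which holds for 5.47% of all genes. Rrm2 was 2.84-fold higher in Het (adjusted p = 0.0042) and 4.37-fold higher in KO (adjusted p = 0.000187, edgeR), and passed in all 17 alternatives of both. The gene lies at chr12:24708241-24714146 on GRCm38 and shares no exonic bases with another gene of the annotation. Rrm1, with which its product forms the active enzyme, differed little, with 95% intervals of the log2 fold change from -0.24 to 0.49 in Het and from -0.32 to 0.41 in KO. Pcna was 1.23-fold higher in Het and 1.20-fold higher in KO and passed in neither. Tyms had 8.37 ± 1.70 CPM in Het females and 5.03 ± 1.07 CPM in Het males (SD, n = 3) and passed in neither.

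Other genes of the cycle, from lists by role, were read in the same fits. In females 2 of 92 passed in KO against Het, a share near the 2.27% of all genes. The inhibitor Cdkn2b (p15), which blocks Cdk4 and Cdk6, had 4.16, 3.09 and 5.29 CPM in Het and 17.2, 10.8 and 11.1 CPM in KO. The groups stand apart, and it was 3.12-fold higher (log2 fold change 1.64 ± 0.27, SE; adjusted p = 0.0053, edgeR), in all 12 alternatives. Cdkn1a (p21), the inhibitor that stops Cdk2 after p53 activation, had 1039, 1259 and 1363 CPM in Het and 732.1, 841.3 and 768.6 CPM in KO. It was 1.57-fold lower (log2 fold change -0.65 ± 0.15, SE; adjusted p = 0.0469, edgeR), a call lost in 6 of 12 alternatives, among them those without Hetz181, KO166, KO178 or KO188. In males none of 84 tested passed (edgeR), and 5 had an unadjusted p under 0.05, against 12.4% of all genes. Cdkn2b had 1.34, 3.09 and 2.61 CPM in Het males and 3.54, 3.70 and 4.25 CPM in KO males (adjusted p = 0.417), and Cdkn1a had a log2 fold change of 0.15. Over both sexes Cdkn2b passed with a fold of 2.24 (adjusted p = 0.00342), and the difference of the female and male changes was not called for Cdkn2b (adjusted p = 0.371) or Cdkn1a (adjusted p = 0.220).

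None of the other role lists had a gene that passed in KO against Het. Nearest in each were, in females, Cdk4 (adjusted p = 0.354), the DREAM subunit gene Lin52 (0.109), the origin recognition gene Orc4 (0.274), Samhd1, which breaks down deoxynucleotides (0.204), the checkpoint kinase gene Chek2 (0.123) and securin, Pttg1 (0.113). In males they were Ccnd3 (adjusted p = 0.318), the E2F partner Tfdp2 (0.251), Cdc45 (0.290), Rrm2b (0.393), Wee1 (0.799) and Incenp (0.452), all by edgeR. Lin52, Orc4, Chek2 and Pttg1 passed in females without Hetz165, where the calls over all genes went from 319 to 1479. Lin52 and Pttg1 also passed in females with DESeq2, Lin52, Pttg1 and Chek2 without both high females, and these 3 and Incenp without the filter on low counts. Tfdp2 passed in males without KO247 and without the filter. Between the sexes 7 of the 20 other mitotic genes were lower in males in Het (median log2 fold change -1.73), against 4.72% of all genes. In KO 14 were lower and 1 was higher (median -1.84), against 9.31% and 11.1%. Of the 29 genes of origin recognition, firing and the replication fork 1 was lower in Het, against 4.72% of all genes, and 6 in KO, against 9.31%, with medians of -0.34 and -0.43. In KO Samhd1 and Rrm2b, a second small subunit of ribonucleotide reductase, were 1.86-fold and 1.70-fold higher in males, in all 17 alternatives for Samhd1 and in 8 for Rrm2b.

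Markers of other cell types differed along with sex, and their part in the sex differences of the cell cycle genes was not tested. The summed level of 10 endothelial markers was higher in males in both genotypes. It was 65.3 to 68.6 CPM in Het females, 50.3 to 88.8 CPM in KO females, 201.0 to 212.2 CPM in Het males and 121.2 to 324.1 CPM in KO males. Of 8 myofibre markers tested 1 was lower in males in Het and 4 in KO, against 4.72% and 9.31% of all genes. Sums over the myofibre list were 117.1 to 342.3, 130.2 to 654.2, 47.7 to 60.3 and 45.2 to 135.4 CPM in the same order. These sums overlap between KO females and KO males. Fibro-adipogenic progenitor sums were larger, at 4647 to 7078, 4389 to 5162, 2906 to 4542 and 3821 to 4526 CPM in the same order. They stood apart between the sexes in Het and overlapped in KO. Pericyte and smooth muscle sums were 390.8 to 660.2, 576.4 to 630.4, 329.5 to 466.4 and 382.2 to 481.1 CPM. Those overlapped in Het and stood apart in KO. Within each genotype the tenocyte, glial and red blood cell sums were all higher in males than in females. Of 10 satellite cell markers 1 was higher in Het, against 5.44% of all genes. In KO 7 were higher and 1 lower, against 11.1% and 9.31%. Within females KO and Het differed in leukocyte markers, with sums of 96.0 to 137.3 CPM in Het and 41.5 to 63.5 CPM in KO. Of 13 tested Cd74 and Lyz2 passed as lower, against 2.27% of all genes called in either direction. Of the 10 satellite cell markers 8 had a log2 fold change below 0 in KO females. For 4 of the 10 every KO female lay below every Het female, against 10.1% of all genes. The satellite cell markers Chrdl2 and Cd34 and the glial marker Ptprz1 were also lower in KO females, and Chrdl2 in KO males. Leaving out 1 library ended the calls of Lyz2 (Hetz164, KO178 or KO188), Ptprz1 (Hetz164, KO166 or KO188) and Cd34 (KO166). The call of Lyz2 was also lost without both high females, and that of Cd74 in the fit of all 12 libraries (adjusted p = 0.160, edgeR). Over both sexes 1 of the 10 endothelial markers, Tek, passed in KO against Het, against 3.41% of all genes. Tek was lower in KO, with a log2 fold change of -0.57 (adjusted p = 0.0392, edgeR), a call that held in 9 of 17 alternatives. The other 9 endothelial markers had a log2 fold change above 0. No marker of any list was at 0 in all libraries. The part of these markers in the KO values of the members was not tested either.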

How the data were processed

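RNA of 12 libraries, 3 per group, was read into cDNA by Smart-Seq2 and made into libraries with Tn5, per the labels' protocols. The deposited values are counts of fragments by Ensembl gene over exons of GRCm38 (Ensembl release 99), from featureCounts 2.0.0 without regard to strand, per the file headers. Per the file headers no column holds expected counts, and no value needed rounding. STAR, Subread, DESeq2 and mm10 are named per the submitters' processing notes. Gene length is as the authors deposited it. The tables held 0 columns of other samples. Symbols came from GENCODE M21 (55144 of 55385 identifiers), and promoters from RefSeq (GRCm38.p6).

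From the counts, CPM used TMM factors over the 12 libraries. Tests used the robust quasi-likelihood fit of edgeR 4.0.16 (R 4.3.3) after filterByExpr, whose minimum count was 10, and p-values were adjusted by Benjamini-Hochberg over all genes tested, with a threshold of 0.05. Each sex was fitted on its 6 libraries, and all other comparisons on the 12 libraries with 4 group means. The fitting functions were run on simulated counts with known changes. That run checks the code and not the error rates for the members. Standard errors are the log2 fold change over the root of F. Alternatives were DESeq2 1.42.0, limma voom (3.58.1), other size factors, no filter, the 12-library fit and leaving out each library.

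The members and lists were chosen with earlier results of these data known. Named were all members, Keap1 and Nfe2l2, other cell cycle genes that passed in KO against Het and otherwise the 1 of smallest p per list and sex, and markers that passed or define satellite cells. Genes of other lists named between the sexes are those already named by this rule.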

Additional observations from a re-analysis of the deposited data

How the results depend on the processing

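No call changed direction under any alternative run. In males KO against Het gave 0 members, but 2 without the filter on low counts and 2 with DESeq2. The average over the sexes gave 0, but 1 without the filter and 2 with DESeq2. The difference of the female and male changes gave 0, but 1 without the filter. Between the sexes 8 members in Het became 13 without the filter, 13 with DESeq2 and 4 without both high females, an alternative chosen after seeing the data, and 21 in KO became 13 without both high females. Leaving out 1 library gave 0 to 0 members in females, 0 to 1 in males (1 without Hetz204 or KO247), 0 to 1 for the average (1 without Hetz204), 0 to 0 for the difference of the changes, 3 to 13 between the sexes in Het and 11 to 22 in KO.

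Over all genes, KO against Het gave 319 in females (1000 without the filter, 707 with DESeq2, 144 to 1479 leaving out 1 library), 115 in males (375, 268, and 41 to 294) and 504 on average (858, 817, and 318 to 931). The difference of the changes gave 1 (358, 231, and 0 to 206). No paired analysis was possible because no number in the sample titles recurs across groups. The median half-width of the 95% intervals of KO against Het for the chromosome, kinetochore and spindle members was 0.95 in females and 0.91 in males on the log2 scale, so that these intervals were about as wide where counts were higher.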
